A study of Mus musculus with 6 samples.

Results

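The transcripts of 9 apolipoproteins and of microsomal triglyceride transfer protein were followed in the livers of mice with and without hepatic Vps15. The set was chosen by gene symbol, from what the proteins are known to do, by a rule that uses no measured value, though with earlier results of these data known. It holds Apob and Mttp, which build very-low-density lipoprotein (VLDL), Apoa1, Apoa2 and Apom of high-density lipoprotein (HDL), Apoa4, Apoa5, Apoc1 and Apoc3 of triglyceride-rich particles, and Apoe, the ligand for uptake of remnant particles. These are 10 of the 56305 genes in the table, and all 10 were among the 15430 genes that passed the filter on low values. The study asks how class 3 PI3K, the lipid kinase complex that contains Vps15, acts on the liver clock and liver metabolism. The RNA came from 3 WT livers and 3 Vps15LKO livers (AlbCre+;Vps15 f/f), in which Cre recombinase under the albumin promoter deletes Vps15. All mice were males of 5 weeks, fed ad libitum and sampled at ZT6, and each liver gave 1 polyA-selected library. The albumin promoter is active in hepatocytes, so the other cells of the liver are not its direct target, and the deletion is chronic. The sources used here do not state for these libraries whether the WT mice carried the floxed allele or Cre.

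The libraries held 16137093 to 18110223 reads on genes. The deposited normalized count is the read count divided by a size factor, which was 0.742 to 0.801 for WT libraries but 1.23 to 1.41 for Vps15LKO libraries. The same share of the reads is therefore a lower normalized count in a Vps15LKO liver. Giving all libraries equal totals of reads (total-read scaling) raised the median log2 fold change over all genes tested by 0.72, upper-quartile scaling raised it by 0.12, and scaling to the 12 hepatocyte markers raised it by 2.21. Pik3r4, the gene of Vps15, had 508, 573 and 460 normalized counts in WT liver, against 341, 362 and 355 in Vps15LKO liver, with a log2 fold change of −0.54 (SE 0.11, limma with Benjamini-Hochberg adjusted p = 0.00207) that became 0.19 under total-read scaling and 1.69 under hepatocyte-marker scaling. The deleted part of Pik3r4 was not counted apart. Every one of the 12 hepatocyte markers was detected in every liver, and 9 of the 12 were called lower. With limma without its mean-variance trend, limma voom and DESeq2 all 12 were lower, and with edgeR 10. Their summed reads made up 15.7% to 16.1% of a WT library, against 8.51% to 10.9% of a Vps15LKO library. Of the markers of other liver cells, 14 of 16 macrophage and Kupffer cell markers, 12 of 12 stellate cell and fibroblast markers and 8 of 8 tested cholangiocyte markers rose, while 5 of 10 endothelial markers fell and 4 rose. Over all tested genes 33.0% were lower and 33.5% higher. Spp1 is in both the macrophage and the cholangiocyte list. Under quantile normalization, without Vps15LKO replicate 1 and with replicate number as a block, 1 macrophage or Kupffer cell marker was lower. Genes low in WT can pass the filter through Vps15LKO livers alone. With 20 or more normalized counts asked of every liver, 4 cholangiocyte markers were higher. The endothelial falls numbered 3 under TMM, 2 under upper-quartile and 0 under total-read and hepatocyte-marker scaling (with 7 and 10 higher), 2 when WT replicate 1, WT replicate 2, Vps15LKO replicate 1 or Vps15LKO replicate 3 was left out, and 3 without WT replicate 3.

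Lipoproteins are particles of triglyceride and cholesteryl ester wrapped in a shell of phospholipid and apolipoproteins. Hepatocytes start a VLDL particle in the endoplasmic reticulum, where the transfer protein encoded by Mttp loads lipid onto apolipoprotein B as it is made, and the particle gains more lipid before secretion. The exchangeable apolipoproteins join particles in the secretory pathway or in plasma, where they activate or inhibit lipases, accept cholesterol or bind receptors. Liver is the main source of most of them, and the intestine is the main source of apolipoprotein A-IV.

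In Vps15LKO livers 8 of the 10 transcripts fell, Apoa4 rose, and Apoe did not pass the test, whereas under hepatocyte-marker scaling 9 of the 10 were higher and Apoa2 alone was lower. Over all tested genes, 33.0% were called lower and 33.5% higher (limma, Benjamini-Hochberg adjusted p under 0.05 with a change of 1.2-fold or more). All 10 transcripts are abundant, at a mean of 1000 normalized counts or more, and among the 2872 tested genes at that level 58.4% were called lower and 19.2% higher. The median log2 fold change of the 10 was −1.42, beside −0.47 for those 2872 genes and −0.02 for all tested genes. None of the 10 overlapped between genotypes, which held for 73.2% of all tested genes and for 83.8% of those with a mean of at least 1000. In bulk tissue, fewer cells of a type and less RNA per cell cannot be told apart. With 3 livers per genotype no exact permutation test of a single gene can give a two-sided p under 0.1, so the calls rest on the spread that limma estimates across all genes.

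**Figure D1:**
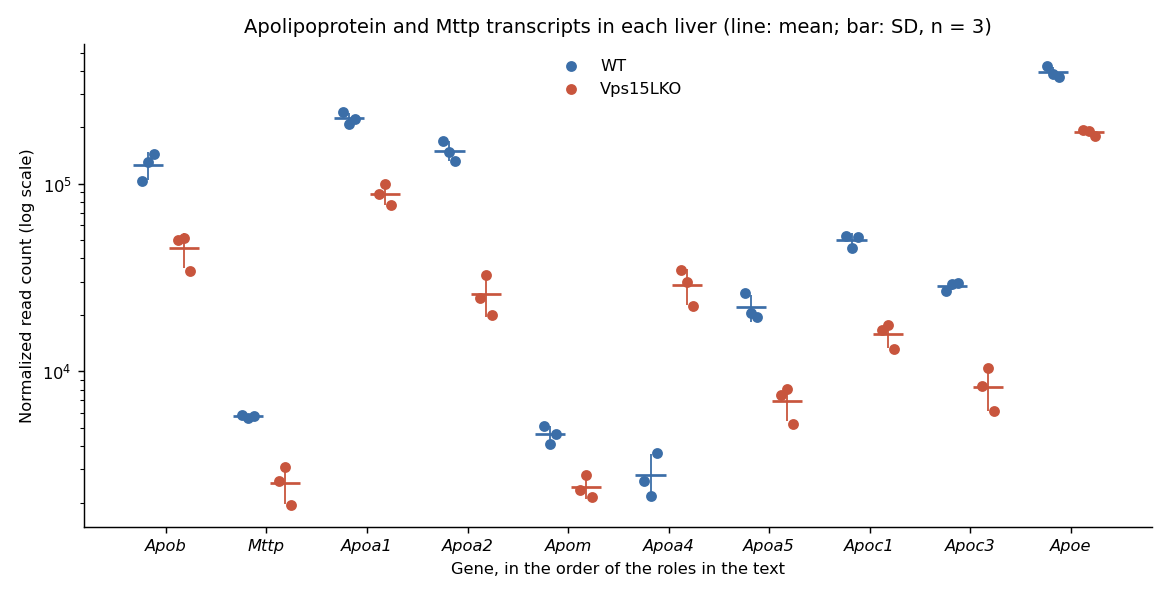
Normalized read count (log axis) of each of the 10 genes in the 3 WT (blue) and 3 Vps15LKO (red) livers, where a point is a liver, a horizontal line a mean and a vertical bar the SD. Apoa4 is the gene whose red points lie above the blue ones, and the 2 genotypes do not overlap for any of the 10 genes.

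The pair of genes that build VLDL fell with the deposited scaling and was higher under hepatocyte-marker scaling. Apob encodes the structural protein of VLDL, which stays with the particle for its whole life, and lies on chromosome 12 of GRCm38 (chr12:7977648-8016835, + strand, ENSMUSG00000020609). Apob had 102971, 129909 and 144779 normalized counts in WT replicates 1 to 3, against 50173, 51406 and 34263 in Vps15LKO replicates 1 to 3, the order used throughout. The highest Vps15LKO liver was below the lowest WT liver, and Vps15LKO replicate 3 stood below the other two. The fall of Apob was 2.80-fold (log2 fold change −1.48, SE 0.31, limma with Benjamini-Hochberg adjusted p = 0.0026), but under quantile normalization the log2 fold change of Apob was −0.10 and the call was lost (adjusted p = 0.743), while over the 22 alternatives adjusted p-values from limma, edgeR and DESeq2 ran from 1.9e-13 to 0.743. Mttp (chr3:138089854-138144968, − strand, ENSMUSG00000028158) had 5836, 5650 and 5786 normalized counts in WT liver, against 2594, 3104 and 1944 in Vps15LKO liver. The WT livers lay within 1.03-fold of each other, while the Vps15LKO livers spanned 1.60-fold, all of them below WT. Mttp fell 2.30-fold (log2 fold change −1.20, SE 0.16, limma with Benjamini-Hochberg adjusted p = 0.000219). Its log2 fold change was −0.48 under total-read scaling and −0.62 under quantile normalization, still called lower. Reads of Apob per kilobase were 9.75 ± 1.70 times those of Mttp in WT and 7.95 ± 0.63 times in Vps15LKO livers (SD, n = 3), with overlap between the genotypes. Mttp shares 457 bp of exon with Trmt10a and 132 bp with Gm43691 on the opposite strand, but those genes held at most 137 and 340 reads in a library.

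Of 26 partners of VLDL assembly and export, 21 fell, 1 rose (5 under quantile normalization) and 4 were not called, whereas 10 were lower and 7 higher under total-read scaling and 2 lower and 21 higher under hepatocyte-marker scaling. Their median log2 fold change was −0.92, and the shares over all tested genes were 33.0% lower and 33.5% higher with the deposited scaling, 11.1% and 66.8% under total-read and 1.64% and 94.6% under hepatocyte-marker scaling. The largest falls were in carboxylesterases, which release fatty acid from stored triglyceride. Ces3b had 9218, 8458 and 11811 normalized counts in WT liver, against 55.0, 223 and 12.0 in Vps15LKO liver, a log2 fold change of −7.48 (SE 0.83, limma with Benjamini-Hochberg adjusted p = 7.61e-05). Ces3b thus ranged from 12.0 to 223 among Vps15LKO livers, so the size of its fall is uncertain. Its neighbour Ces3a had 41196 to 52765 normalized counts in WT liver, against 1371, 7394 and 767 in Vps15LKO liver, so that Vps15LKO replicate 2 kept the most of both. Ces3a and Ces3b are close paralogs whose reads could be split between them, and both remained lower under total-read and hepatocyte-marker scaling. Ces1d had a log2 fold change of −2.29 (SE 0.36), with WT replicate 3 at 5017 beside 12274 and 11874 in the other WT livers. Arf4, a small GTPase of vesicle traffic, was the partner that rose, with a log2 fold change of 0.64 (SE 0.11). The mRNA of Apob is edited at a cytidine by Apobec1 and its cofactors to make the short form B-48, and the list of 4 editing genes split. Apobec1, the deaminase, rose from 342 to 427 normalized counts in WT livers to between 960 and 1085 in Vps15LKO livers (log2 fold change 1.44, SE 0.11, limma with Benjamini-Hochberg adjusted p = 1.02e-05). Its cofactors A1cf and Rbm47 fell, with log2 fold changes of −1.26 (SE 0.19) and −0.96 (SE 0.16), and both were higher under hepatocyte-marker scaling. Syncrip, which binds the same complex, had a log2 fold change of 0.04 and was not called, but was higher by 0.77 under total-read scaling, under which Rbm47 lost its call. Editing itself cannot be read from counts per gene.

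The 3 genes of HDL proteins fell to unequal extents with the deposited scaling, and under hepatocyte-marker scaling Apoa1 and Apom were higher. Apoa1 encodes the main protein of HDL and the activator of Lcat, which esterifies cholesterol, and lies at chr9:46228580-46230466 (+ strand, ENSMUSG00000032083). Apoa1 had 239886, 207651 and 221783 normalized counts in WT liver, against 87724, 99272 and 77290 in Vps15LKO liver. The groups were far apart against a spread of 1.16-fold within WT and 1.28-fold within Vps15LKO livers. Apoa1 fell 2.54-fold (log2 fold change −1.35, SE 0.37, limma with Benjamini-Hochberg adjusted p = 0.0117). The call was lost without WT replicate 1 (adjusted p = 0.0532) and without Vps15LKO replicate 1 (adjusted p = 0.0946), when the log2 fold change was −1.29 and −1.35, while limma, edgeR and DESeq2 adjusted p-values for Apoa1 over the 22 alternatives ranged from 9.76e-23 to 0.148.

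Apoa2 encodes the second protein of HDL (chr1:171225054-171226379, + strand, ENSMUSG00000005681) and had the largest fall of the 10. Apoa2 had 168754, 147893 and 132417 normalized counts in WT liver, against 24561, 32789 and 20085 in Vps15LKO liver. Every Vps15LKO liver was below the lowest WT liver, and the order among Vps15LKO livers was again replicate 2, 1 and 3. The fall was 5.89-fold (log2 fold change −2.56, SE 0.28, limma with Benjamini-Hochberg adjusted p = 7.85e-05), and 98.0% of the tested genes had a higher log2 fold change. Apoa2 was the one gene of the 10 that stayed lower under every scaling tried, with −1.83 under total-read, −1.16 under quantile and −0.33 under hepatocyte-marker scaling. The ratio of Apoa2 to Apoa1 reads per kilobase, which does not depend on the size factor of a library, was 1.62, 1.64 and 1.37 in WT livers and 0.644, 0.760 and 0.598 in Vps15LKO livers. The ratio did not overlap, and the more abundant of the pair per length was Apoa2 in every WT liver and Apoa1 in every Vps15LKO liver. Quantile normalization, which does alter ratios between genes, brought the pair closer, with log2 fold changes of −1.16 for Apoa2 and −0.42 for Apoa1.

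Apom encodes the HDL carrier of sphingosine-1-phosphate (chr17:35128997-35132050, − strand, ENSMUSG00000024391). Apom had 5098, 4122 and 4660 normalized counts in WT liver, against 2341, 2792 and 2137 in Vps15LKO liver. The genotypes did not overlap, and this was the smallest called fall of the 10, 1.91-fold (log2 fold change −0.94, SE 0.13, limma with Benjamini-Hochberg adjusted p = 0.000273). Under total-read scaling Apom had a log2 fold change of −0.21 and was not called, and under hepatocyte-marker scaling it was higher by 1.29.

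Among the 4 genes of triglyceride-rich particles, 3 fell and 1 rose, and under hepatocyte-marker scaling all 4 were higher. Apoa5 encodes a protein that aids hydrolysis of plasma triglyceride by lipoprotein lipase (chr9:46268633-46271919, + strand, ENSMUSG00000032079). Apoa5 had 26164, 20400 and 19421 normalized counts in WT liver, against 7527, 8026 and 5245 in Vps15LKO liver, a 3.20-fold fall (log2 fold change −1.68, SE 0.20, limma with Benjamini-Hochberg adjusted p = 0.000114). Under total-read scaling and quantile normalization the log2 fold change was −0.95 and −0.62, still called lower. WT replicate 1 stood above the other WT livers, and the genotypes were separate. Gm47544, an antisense gene that shares 524 bp of exon with Apoa5, held 0.398 ± 0.003 reads per Apoa5 read in WT and 0.376 ± 0.012 in Vps15LKO libraries (SD, n = 3). The library kit keeps strand, but whether counting used it is not given in the sources used here, so reads of Apoa5 and of Gm47544 cannot be told apart with certainty.

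Apoc1 and Apoc3 encode small proteins that slow the clearance of triglyceride-rich particles, Apoc3 mainly by holding back lipoprotein lipase and remnant uptake. Apoc1 (chr7:19689481-19692660, − strand, ENSMUSG00000040564) had 52925, 45466 and 52309 normalized counts in WT liver, against 16605, 17671 and 13092 in Vps15LKO liver. Apoc1 fell 3.20-fold (log2 fold change −1.68, SE 0.19, limma with Benjamini-Hochberg adjusted p = 9.58e-05). The log2 fold change of Apoc1 was −0.95 under total-read scaling and −0.39 under quantile normalization, still called lower. Apoc3 (chr9:46232933-46235636, − strand, ENSMUSG00000032081) had 26870, 29335 and 29644 normalized counts in WT liver, against 8337, 10405 and 6156 in Vps15LKO liver. In both genes all Vps15LKO livers were well below WT, and for Apoc3 the Vps15LKO livers spread over 1.69-fold, the widest of the 10 genes. The fall of Apoc3 was 3.52-fold (log2 fold change −1.82, SE 0.20, limma with Benjamini-Hochberg adjusted p = 7.62e-05). With total-read scaling it was −1.09 and with quantile normalization −0.72 on the log2 scale, still called lower.

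Apoa4 encodes apolipoprotein A-IV of chylomicrons and HDL (chr9:46240696-46243459, + strand, ENSMUSG00000032080). Apoa4 had 2604, 2158 and 3694 normalized counts in WT liver, against 34558, 29813 and 22187 in Vps15LKO liver. The lowest Vps15LKO liver was far above the highest WT liver, and the WT livers themselves spanned 1.71-fold. The rise was 10.3-fold (log2 fold change 3.37, SE 0.23, limma with Benjamini-Hochberg adjusted p = 6.56e-06), and 3.76% of the tested genes had a higher log2 fold change. Apoa4 was higher under all 22 alternatives, with log2 fold changes from 3.19 to 5.59. Antisense genes Gm10680 and Gm47528 share 632 bp and 634 bp of exon with Apoa4 and rose with it, with log2 fold changes of 3.36 (SE 0.23) and 3.31 (SE 0.21). Gm10680 held 0.621 ± 0.018 reads per Apoa4 read in WT and 0.619 ± 0.012 in Vps15LKO libraries, and Gm47528 held 0.195 ± 0.014 and 0.188 ± 0.003 (SD, n = 3). The same limit on strand holds here, and summing the 3 genes gave 3907 to 6729 normalized counts in WT liver, against 40313 to 62285 in Vps15LKO liver.

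Apoe, which hepatocytes and macrophages both make, lies at chr7:19696109-19699188 (− strand, ENSMUSG00000002985) and was the gene of the set that was not called. Apoe had 424197, 384306 and 368758 normalized counts in WT liver, against 192808, 190989 and 179772 in Vps15LKO liver. The Vps15LKO livers lay within 1.07-fold of each other and all were below the lowest WT liver. The log2 fold change was −1.06 (SE 0.53, limma with Benjamini-Hochberg adjusted p = 0.109). Apoe had the highest normalized counts of the 10, and its SE was 0.53 with limma's mean-variance trend and 0.10 without it. It was called lower by limma without the trend, by limma voom, by edgeR and by DESeq2, which are 4 of the 22 alternatives. Adjusted p-values for Apoe over the 22, from limma, edgeR and DESeq2, ran from 5.67e-23 to 0.838. Under total-read scaling its log2 fold change was −0.33, not called, and under hepatocyte-marker scaling it was higher by 1.17. Macrophage and Kupffer cell markers summed to 11614 to 13224 normalized counts in WT liver, against 56624 to 66334 in Vps15LKO liver, with 14 of 16 higher and none at 0 in either genotype, and their part in the Apoe value was not tested.

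**Figure D2:**
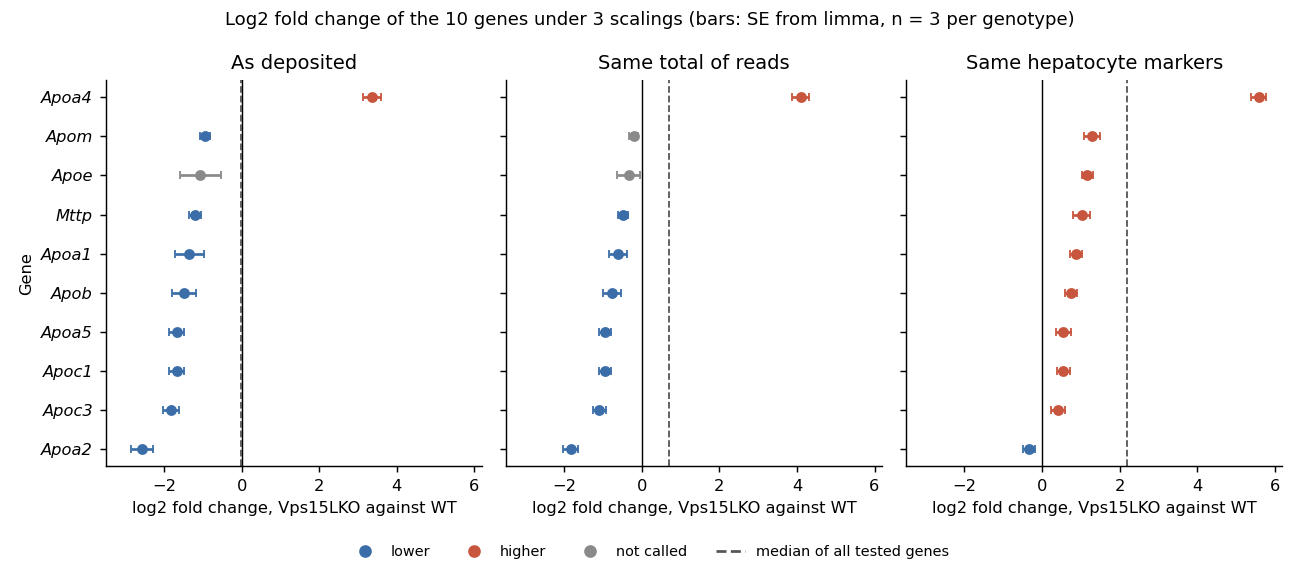
Log2 fold change of each gene (point, with the SE from limma as bar) in Vps15LKO against WT livers with the deposited scaling, after scaling to equal totals of reads, and after scaling to the hepatocyte markers. The dashed line is the median of all 15430 tested genes in that scaling: 9 genes lie to its left and Apoa4 to its right in each panel, while the sign of 8 of them turns in the last panel.

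The 3 scalings shift all genes together, so the distance of a gene from the median of all genes is kept by construction. The median of the 10 genes lay −1.40, −1.39 and −1.38 from the median of all tested genes on the log2 scale with the deposited, total-read and hepatocyte-marker scaling. Under total-read scaling 7 of the 10 genes were lower and 1 higher (median log2 fold change −0.69), where 11.1% of all tested genes were lower and 66.8% higher. Under hepatocyte-marker scaling 1 was lower and 9 were higher (median 0.81), where 1.64% of all tested genes were lower and 94.6% higher. Quantile normalization, which gives every library the same set of values, does not keep that distance. The median of the 10 was then −0.40, which is −0.31 from the median of all tested genes, and 6 were lower and 1 higher, where 37.0% of all tested genes were lower and 31.2% higher. Apob at −0.10 and Apoa1 at −0.42 were then not called.

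Per length, in TPM (reads per kilobase of exon, scaled to the same sum in every library) computed from recovered reads, Apoa2 led in WT liver at 27634 ± 2193, followed by Apoe at 18220 ± 511 and Apoa1 at 17923 ± 711 (SD, n = 3). The ranges of Apoe and Apoa1 overlapped in WT. Then came Apoc1 at 6709 ± 491, Apoc3 at 2812 ± 275, Apob at 903 ± 189, Apoa5 at 863 ± 100, Apom at 453 ± 34, Apoa4 at 155 ± 47 and Mttp at 92.3 ± 3.5, and of these neighbours Apob and Apoa5 overlapped. In Vps15LKO liver Apoe led at 14866 ± 534 TPM, followed by Apoa1 at 12014 ± 778 and Apoa2 at 8063 ± 1533. Apoc1 was next at 3574 ± 352, and Apoa4 had overtaken Apoc3, Apob, Apoa5 and Apom at 2677 ± 508, with Apoc3 at 1372 ± 272. The ranges of Apoc1 (3168 to 3789 TPM) and Apoa4 (2201 to 3211 TPM) overlapped. Apob at 546 ± 90 and Apoa5 at 462 ± 76 overlapped, as did Apoa5 and Apom at 403 ± 32, and Mttp stayed last at 68.9 ± 11.8. Among all genes by mean TPM, Apoa2 went from rank 3 to rank 10, Apoe from 4 to 3, Apoa1 from 5 to 7 and Apoa4 from 730 to 36.

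**Figure D3:**
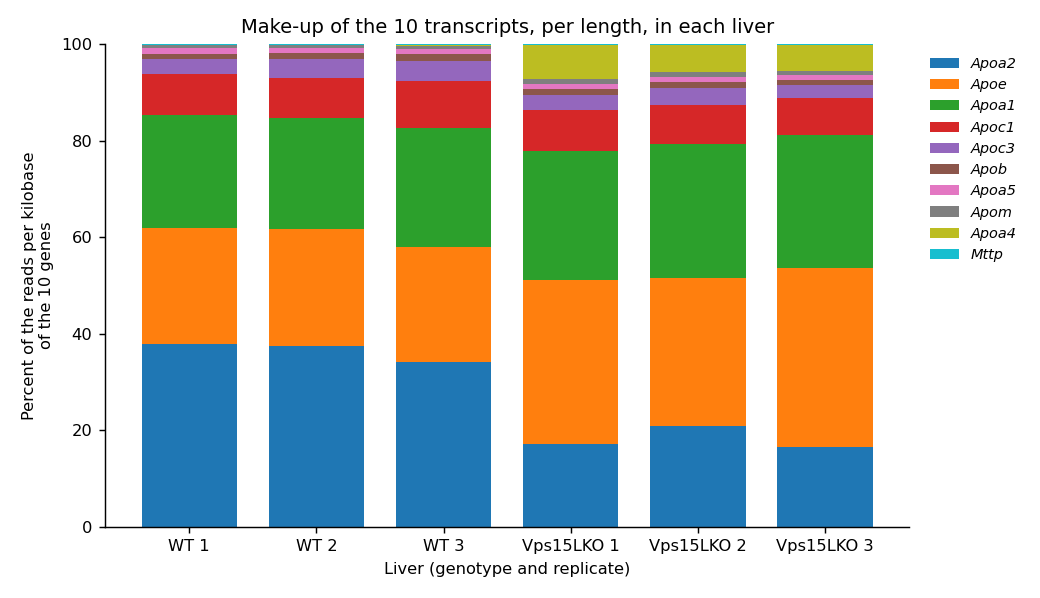
Percent of the summed reads per kilobase of the 10 genes that each gene took, stacked to 100 for each of the 6 livers. Apoa2 shrinks from 36.4% to 18.2% on average and Apoa4 grows from 0.205% to 6.06%, with Apoe at 24.0% and 33.9%.

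Together the 10 genes took 4.32% to 4.52% of the reads of a WT library, against 2.84% to 3.12% of a Vps15LKO library, without overlap. Within that pool, measured per kilobase, the make-up changed as well as the total. Apoa2 took 36.4% ± 2.1 of the pool in WT and 18.2% ± 2.4 in Vps15LKO livers, while Apoe took 24.0% ± 0.3 and 33.9% ± 3.2 and Apoa1 took 23.7% ± 1.0 and 27.3% ± 0.5 (SD, n = 3). Apoa4 took 0.205% ± 0.066 in WT and 6.06% ± 0.96 in Vps15LKO livers. Reads of Apoa4 per kilobase were 0.0086 ± 0.0024 of those of Apoa1 in WT and 0.223 ± 0.040 in Vps15LKO livers. Set against Alb, the albumin transcript that hepatocytes make, the ratio of Vps15LKO to WT means was 0.983 for Apob, 1.10 for Apoa1, 1.21 for Mttp, 1.36 for Apoe, 1.46 for Apom, 0.874 for Apoa5, 0.873 for Apoc1, 0.790 for Apoc3, 0.475 for Apoa2 and 28.2 for Apoa4. Alb was chosen for this after its values were seen, and it was itself at 2030860 to 2350420 normalized counts in WT liver, against 620735 to 968935 in Vps15LKO liver. Against Alb the livers of the genotypes overlapped for Apob, with 0.736 to 1.198 reads per 100 Alb reads per kilobase in WT and 0.892 to 1.07 in Vps15LKO, and also for Apoa1, Apoa5 and Apoc1. They did not overlap for the other 6 genes, of which Mttp, Apoe, Apom and Apoa4 were higher against Alb in Vps15LKO livers and Apoa2 and Apoc3 lower, while 92.2% of all tested genes, and 88.5% of those at a mean of 1000 normalized counts or more, did not overlap in this ratio.

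With the deposited scaling the Vps15LKO livers differed among themselves in the same order for most of the set. Replicate 3 was the lowest Vps15LKO liver for 10 of the 10 genes, and replicate 2 was the highest for 8, with Apoa4 and Apoe highest in replicate 1. Over tested genes at a mean of 1000 normalized counts or more, replicate 3 was the lowest Vps15LKO liver for 63.4%. The order depends on the size factors. As a share of reads, Apob, Apoa4, Apoa5 and Apoc1 were highest in replicate 1. Apoe took 1.4076%, 1.3030% and 1.4085% of the reads of Vps15LKO replicates 1 to 3, so that it was lowest in replicate 2. Hepatocyte markers also summed lowest in replicate 3, at 8.51% of its reads beside 9.83% and 10.9% in replicates 1 and 2. Markers of 3 other cell types summed highest in replicate 3, while endothelial markers took 0.0815%, 0.0836% and 0.0816% of the reads of Vps15LKO replicates 1 to 3 (11159, 12252 and 10420 normalized counts). Cholangiocyte markers summed to 15526, 12196 and 23313 normalized counts in Vps15LKO replicates 1 to 3 beside 714 to 849 in WT livers. Stellate cell and fibroblast markers summed to 33878, 36561 and 39800 beside 7907 to 8394 in WT, with none at 0, and macrophage and Kupffer cell markers also summed highest in replicate 3. Single genes differed from the sums. Of the Vps15LKO livers, replicate 3 was the lowest for 7 of 16 macrophage and Kupffer cell markers and 3 of 12 stellate cell and fibroblast markers. The part of these cells in the order of the livers was not tested. Without Vps15LKO replicate 3, 8 of the 10 genes were still called lower and 1 higher, with a median log2 fold change of −1.28.

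Of the 10 genes, 4 sit in a cluster of 43.34 kb on chromosome 9, in the order Apoa1, Apoc3, Apoa4 and Apoa5. In that stretch Apoa4 rose while its neighbours on either side, Apoc3 and Apoa5, fell (higher under hepatocyte-marker scaling). Reads of Apoa4 per kilobase were 0.055 ± 0.014 of those of Apoc3 in WT and 1.98 ± 0.36 in Vps15LKO livers, and 0.183 ± 0.070 and 5.81 ± 0.61 of those of Apoa5 (SD, n = 3). Flanking the cluster within 100 kb lie 4 protein-coding genes, of which 3 were tested. Sik3, a kinase gene, had a log2 fold change of −0.39 (SE 0.10) and was called lower, while Zpr1 at 0.11 and Bud13 at 0.08 were not called. All 3 were higher under total-read scaling, by 0.33, 0.84 and 0.80, as were 66.8% of all tested genes, and under hepatocyte-marker scaling, as were 94.6%.

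Promoters are shown for the genes of this cluster that have a window in the RefSeq table, since they lie within a short stretch and moved in opposite directions. Each is the 250 bases before the RefSeq start on the + strand of GRCm38.p6: chr9:46228380-46228629 for Apoa1, chr9:46240594-46240843 for Apoa4 and chr9:46268383-46268632 for Apoa5. In the gene models behind the coordinates given above, Apoa4 starts 148 bases and Apoa1 50 bases before the RefSeq start, so the last 148 and 50 bases of those windows lie inside the gene, while both starts of Apoa5 coincide. Capitals mark matches to the motifs searched.
Apoa4: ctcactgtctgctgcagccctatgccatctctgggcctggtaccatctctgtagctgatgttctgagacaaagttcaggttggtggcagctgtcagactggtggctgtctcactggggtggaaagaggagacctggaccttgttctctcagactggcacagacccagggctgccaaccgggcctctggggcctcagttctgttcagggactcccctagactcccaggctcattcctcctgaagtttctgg
Apoa1: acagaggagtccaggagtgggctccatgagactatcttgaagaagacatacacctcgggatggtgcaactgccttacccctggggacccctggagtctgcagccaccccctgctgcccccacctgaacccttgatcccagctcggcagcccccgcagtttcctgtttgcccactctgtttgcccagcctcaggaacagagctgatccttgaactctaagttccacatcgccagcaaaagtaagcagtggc
Apoa5: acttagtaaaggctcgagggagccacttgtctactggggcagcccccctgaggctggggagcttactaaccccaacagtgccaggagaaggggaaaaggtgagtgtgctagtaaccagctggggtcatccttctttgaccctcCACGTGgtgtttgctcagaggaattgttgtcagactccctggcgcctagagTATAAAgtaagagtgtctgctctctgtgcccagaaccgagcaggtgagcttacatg
The motifs were the E-box CACGTG, which Bmal1 and Clock bind, the nuclear receptor half-site AGGTCA, the HNF4 site CAAAGTCCA and the TATA box TATAAA, each searched on both strands over 250 bases. The Apoa5 window held CACGTG at −107 to −102 and TATAAA at −56 to −51, counted from the RefSeq start, and no matches overlapped. The windows of Apoa1 and Apoa4 held none of the 4 motifs in these letters. Of the 8 genes of the set with a window, 1 held CACGTG, beside 6.02% of the 32851 windows in the table, and 3 held TATAAA, beside 12.4%. These were Apoa5, Apob at −60 to −55 and Apoa2 at −212 to −207. None held AGGTCA or CAAAGTCCA, which 14.0% and 0.384% of all windows held. Apoc1 and Apoc3 have no window in the table. Of the 8 windows, that of Mttp lies wholly inside the gene by the annotation used for coordinates, with its RefSeq start 1550 bases into it, and that of Apom has 249 of its 250 bases inside, so these counts do not cover the bases before the annotated start of either gene.

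**Figure D4:**
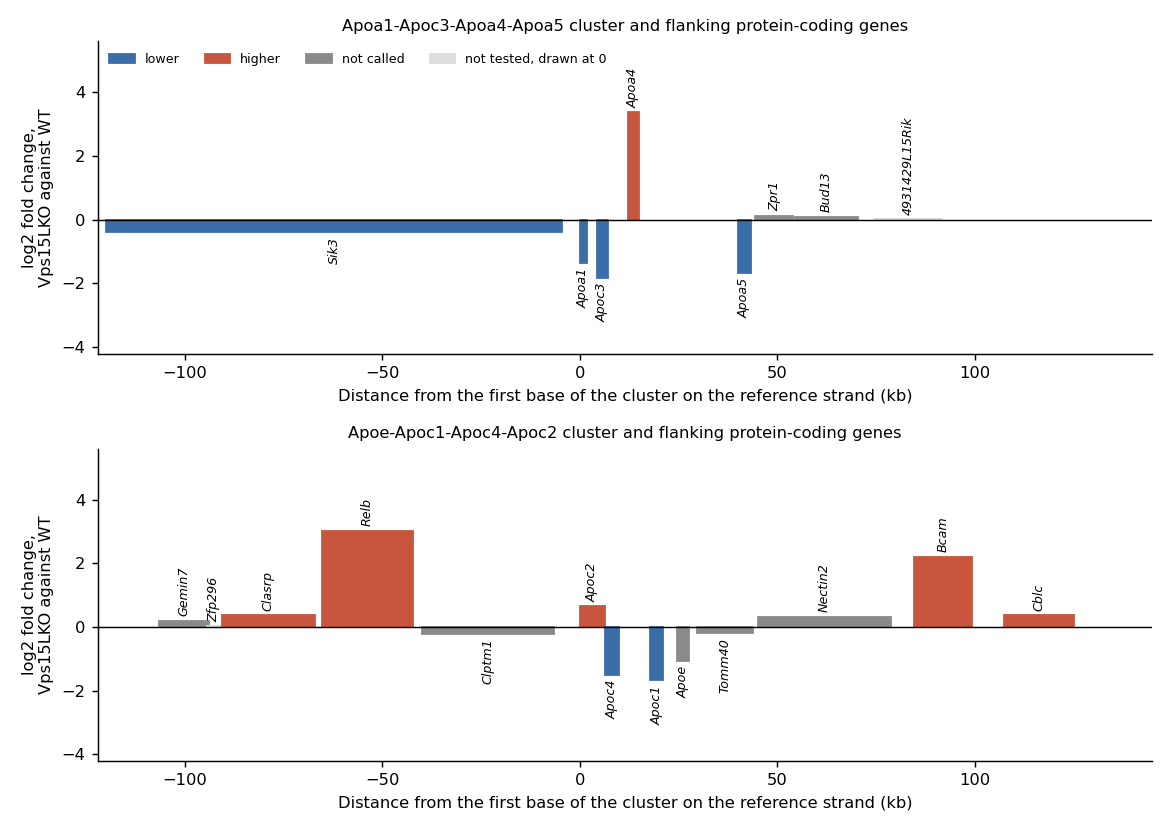
Log2 fold change (height) of the genes of both apolipoprotein clusters and of the protein-coding genes around them, placed by distance in kb from the first base of the cluster. Gm44805, which overlaps Apoc2 and Apoc4 and was not called (log2 fold change −0.19), is not drawn. In the upper map Apoa4 rises to 3.37 between falls of Apoc3 and Apoa5, which are higher under hepatocyte-marker scaling, and in the lower map Relb and Bcam, outside the cluster, rise most (Sik3 runs past the left edge).

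The second cluster spans 27.61 kb on chromosome 7 and holds Apoe, Apoc1, Apoc4 and Apoc2. Apoc1 fell and Apoe was not called, and reads of Apoc1 per kilobase went from 0.369 ± 0.035 of those of Apoe in WT to 0.241 ± 0.029 in Vps15LKO livers (SD, n = 3), without overlap. Apoc4 had a log2 fold change of −1.51 (SE 0.15) and was called lower, though higher at 0.72 under hepatocyte-marker scaling. Apoc2, the obligatory activator of lipoprotein lipase, went from 3844, 3095 and 4394 normalized counts in WT livers to 5924, 5988 and 5647 in Vps15LKO livers (log2 fold change 0.65, SE 0.14, limma with Benjamini-Hochberg adjusted p = 0.00293). The counts of Apoc2 and Apoc4 are uncertain, because 646 bp of Apoc2 exon and 119 bp of Apoc4 exon are shared on the same strand with Gm44805, a gene model that joins them. The 3 summed to 22780 to 27536 normalized counts in WT liver, against 16510 to 19454 in Vps15LKO liver, and the ratio of Gm44805 to Apoc2 reads went from 2.27 ± 0.24 to 1.27 ± 0.05 (SD, n = 3). Of 9 protein-coding genes on either side of the cluster, 8 were tested, of which 4 rose and 4 were not called, beside 33.5% higher over all tested genes. All 8 were higher under total-read scaling, as were 66.8% of tested genes, and under hepatocyte-marker scaling, as were 94.6%. Relb, an NF-κB subunit, had a log2 fold change of 3.01 (SE 0.11) and Bcam, a laminin receptor, one of 2.20 (SE 0.15).

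Over the 6 livers, the genes whose profile was closest to Apoa4, by root mean square distance between log2 values centred on each gene's mean, were its antisense partners Gm10680 (0.029) and Gm47528 (0.069), followed by Nid1 (0.291), which encodes the basement membrane protein nidogen 1. Nid1 had 486 ± 45 normalized counts in WT liver, against 5513 ± 1016 in Vps15LKO liver (SD, n = 3). The closest to Apoa2 were Sardhos (0.074), Car5a (0.079), a mitochondrial carbonic anhydrase, and Gm4788 (0.094), with log2 fold changes of −2.48, −2.44 and −2.53. These were picked from 2862 genes at a mean of 1000 normalized counts or more. Among the 10 genes themselves the closest pairs were Apoa1 and Mttp (0.127), Apoe and Apom (0.133) and Apoa5 and Apoc1 (0.135), and Apoa4 was at least 2.17 from every other. All points share the same 6 libraries and the same division into genotypes.

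Of 21 other apolipoproteins, 11 passed the filter, and of these 9 fell and 2 rose, with a median log2 fold change of −0.88, beside 33.0% lower and 33.5% higher over all tested genes and 58.4% lower over those at a mean of 1000 normalized counts or more. With total-read scaling, 4 counted as lower and 4 as higher (all tested genes 11.1% and 66.8%), and under hepatocyte-marker scaling none was lower and 9 were higher (1.64% and 94.6%). Apol7a, Apon and Apoh, the last known as a phospholipid-binding protein of plasma, fell most, with log2 fold changes of −2.25 (SE 0.20), −2.20 (SE 0.27) and −1.74 (SE 0.23). Apol7a belongs to a family of close copies and its count is uncertain. Clu, which encodes clusterin, an extracellular chaperone also called apolipoprotein J, rose from 37263 to 40502 normalized counts in WT livers to between 83302 and 107523 in Vps15LKO livers (log2 fold change 1.27, SE 0.25, limma with Benjamini-Hochberg adjusted p = 0.00181). Clu was highest in Vps15LKO replicate 3, the liver in which all 10 genes above were lowest among Vps15LKO livers with the deposited scaling.

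Receptors for lipoproteins did not share one direction. Of 15 tested, 4 fell and 7 rose (median log2 fold change −0.07), beside 33.0% lower and 33.5% higher over all tested genes, whereas under total-read scaling 1 was lower and 12 were higher and under hepatocyte-marker scaling all 15 were higher, as were 94.6% of all tested genes. Quantile normalization left 2 of the 15 lower and 8 higher. Lrp1, a remnant receptor, and Scarb1, the HDL receptor, had log2 fold changes of −0.81 (SE 0.16) and −0.77 (SE 0.14). The largest rises by the rule for naming were in Sorl1 (3.59, SE 0.16), Apobr (2.34, SE 0.16) and Msr1 (1.30, SE 0.14) on the log2 scale. Msr1 is a scavenger receptor of macrophages, and Apobr binds apolipoprotein B-48 on the same cells. The macrophage markers given above moved with them, and their part was not tested.

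Genes that remodel lipoproteins in plasma or carry cholesterol out of cells showed 13 falls and 3 rises among 19 tested (median log2 fold change −1.09), beside 33.0% lower and 33.5% higher over all tested genes. With total-read scaling, 9 counted as lower and 4 as higher (all tested genes 11.1% and 66.8%), and under hepatocyte-marker scaling 2 were lower and 14 higher (1.64% and 94.6%). Saa4, an HDL apolipoprotein, Lipg, the endothelial lipase, and Pon1, an HDL-bound esterase, fell most, with log2 fold changes of −2.71 (SE 0.16), −2.68 (SE 0.41) and −2.66 (SE 0.29). Lpl, lipoprotein lipase, rose from 411, 518 and 1593 normalized counts in WT livers to 6460, 5843 and 5387 in Vps15LKO livers (log2 fold change 3.07, SE 0.43, limma with Benjamini-Hochberg adjusted p = 0.000266). WT replicate 3 stood apart from the other WT livers and still lay well below every Vps15LKO liver. Abcg1, a cholesterol exporter, and Pltp, the phospholipid transfer protein, rose with log2 fold changes of 2.15 (SE 0.09) and 0.78 (SE 0.19). Macrophages and other cells of the liver also make Lpl, Abcg1 and Pltp, the macrophage markers given above moved with them, and their part in these rises was not tested.

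Transcription regulators known to act on apolipoprotein genes were lower for 20 of 23 and higher for none (median log2 fold change −0.87), beside 33.0% lower and 33.5% higher over all tested genes and 58.4% lower over those at a mean of 1000 normalized counts or more. With total-read scaling, 9 counted as lower and 3 as higher (all tested genes 11.1% and 66.8%), and under hepatocyte-marker scaling none was lower and 20 were higher (1.64% and 94.6%). Nr0b2, a repressor induced by bile acids, Ppara, the fatty acid receptor, and Cebpa, a hepatocyte factor, fell most, with log2 fold changes of −2.22 (SE 0.34), −1.99 (SE 0.19) and −1.94 (SE 0.18). Hnf4a and Creb3l3 were named after their values were seen, because both are known to act on the Apoa4 gene. Hnf4a had 16638 to 19667 normalized counts in WT liver, against 5982 to 8087 in Vps15LKO liver (log2 fold change −1.38, SE 0.15), and Creb3l3 had 6878 to 7851 and 2687 to 4672 (log2 fold change −1.04, SE 0.19). Both were higher under hepatocyte-marker scaling, by 0.84 and 1.18, and their part in the level of Apoa4 was not tested.

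**Figure D5:**
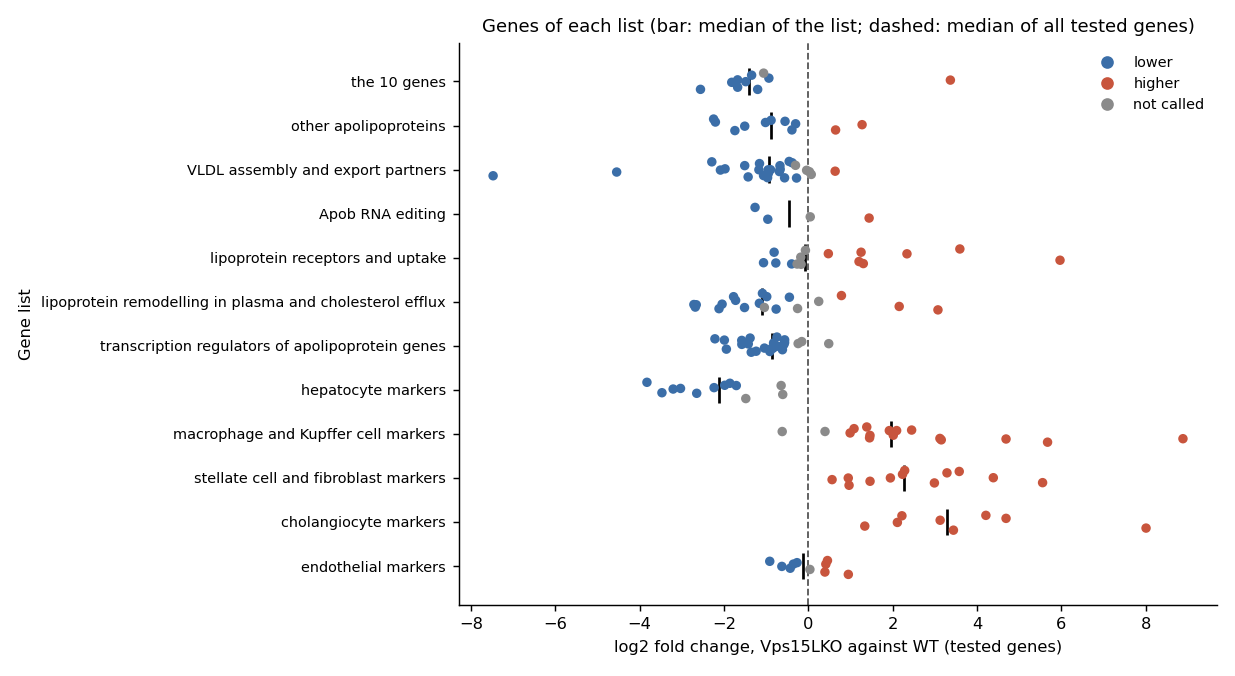
Log2 fold change of every tested gene (point) of each list in Vps15LKO against WT livers with the deposited scaling, coloured by call, with the median of each list as a bar and the median of all tested genes dashed. The 10 genes have a median of −1.42, between that of the hepatocyte markers at −2.11 and those of the other lipoprotein lists, from −1.09 to −0.07, and 9 of the 10 are higher under hepatocyte-marker scaling.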

How the data were processed

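Liver RNA of 3 WT and 3 Vps15LKO mice was measured with 1 library per liver. Reads were filtered with SOAPnuke, mapped to GRCm38 with HISAT2 and counted per gene with featureCounts from Subread, and the authors normalized the counts with DESeq2, so the deposited values are a signal, read counts divided by 1 size factor per library, with no filter on genes. Versions, and how counting handled strand and multi-mapped reads, are not given in the sources used here. Every value above 0 was a whole multiple of the value of 1 read in its library within a tolerance of 0.01 (100% of values), so whole reads were recovered. They summed to 16137093 to 18110223 per library, and the spread between livers includes their counting error. Replicates of 1 genotype differed by more than counting noise in all 6 pairs, with a chi-square per gene of 12.9 to 33.3. The authors' own group comparisons were not used.

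The filter asked for 20 or more normalized counts in 3 or more of the 6 livers and left 15430 genes. log2(normalized count + 1) was compared with limma 3.58.1 in R 4.3.3 (lmFit, eBayes with a trend), with p-values adjusted over the tested genes by Benjamini-Hochberg, and calls needed an adjusted p under 0.05 with a change of 1.2-fold or more. Fold changes are on the log2(value + 1) scale, which understates changes of low genes. On simulated counts the fit recovered 91.8% of 98 genes changed by 1 on the log2 scale and 100% of 99 changed by 2. The fit made 13 false calls among the 14279 genes of those counts. They held far fewer changed genes than the 10262 called in the livers. The accuracy of the calls in the livers was not tested. Gene symbols, coordinates and exon lengths came from GENCODE M21 on GRCm38, which matched 55227 of 56305 genes, and promoters from RefSeq (GRCm38.p6). TPM and reads per kilobase used the summed exon length of a gene.

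The 10 genes and all gene lists were chosen with earlier results of these data known. All 10 genes were named. From each list the text names up to 3 called genes each way, those with the largest changes at a mean of 100 normalized counts or more, besides Pik3r4, the genes nearest to Apoa4 and Apoa2 and the genes around both clusters. Cetp, in the list of remodelling genes, matched no gene. Some genes of the lists are not reported here by name. The 22 alternatives were pseudocounts of 0.1 and 10, no filter and a filter in every liver, TMM, upper-quartile, total-read, hepatocyte-marker and quantile scaling, 3 tests on the recovered reads (limma voom, DESeq2 1.42.0, and edgeR 4.0.16, which called 10205 genes), no trend in limma, each liver left out, replicate number as a block, no fold threshold and a fold of 1.5. Python 3.11.15, numpy 2.4.6, pandas 2.3.3 and matplotlib 3.10.9 were used.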

Additional observations from a re-analysis of the deposited data

How the results depend on the processing

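Of 220 values, the 10 genes under 22 alternatives, 203 kept direction and call, 8 reversed, 5 lost the call and 4 gained it. All 8 reversals came with scaling to the hepatocyte markers, of which 9 of 12 were called lower in the main fit and all 12 by limma without a trend: 1 of the 10 genes was then lower and 9 higher, 253 genes were lower and 14598 higher, and the log2 fold change was 0.74 for Apob, 1.02 for Mttp, 0.88 for Apoa1, 1.29 for Apom, 0.55 for Apoa5, 0.55 for Apoc1, 0.41 for Apoc3 and 1.17 for Apoe, with Apoc4 outside the 10 at 0.72. Total-read scaling gave 1712 genes lower and 10300 higher, and Apom at -0.21 lost its call. Quantile normalization took the calls of Apob (-0.10) and Apoa1 (-0.42), and leaving out WT or Vps15LKO replicate 1 took that of Apoa1. The causes of these losses were not tested. Apoe gained a call in 4 alternatives that use no trend or recovered reads. Outside total-read and hepatocyte-marker scaling, 192 of 200 values were kept. Over fits without 1 liver, 7 to 8 of the 10 genes were lower and 1 higher. Genes called in all ranged from 7830 with a fold of 1.5 to 14851 under hepatocyte-marker scaling, beside 10262. Same-numbered livers did not deviate together (correlations -0.010, -0.011 and 0.049), so the numbers pair no livers. With replicate number as a block 10048 genes were called, 4983 lower and 5065 higher, with 8 of the 10 genes lower and 1 higher, and no call among the 10 differed. Cell type markers and size factors moved with genotype and cannot be told apart from it here, the sign of 8 of the 10 genes depended on the scaling, and the SE of Apoe (0.53), with its 2.09-fold difference uncalled, came with the mean-variance trend and was 0.10 without it in the same livers.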
